A study of Drosophila melanogaster with 8 samples.

Results

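SIN3 187HA occupied 536 sites of its filtered list of 4903 (10.9%) that shared no base with any filtered SIN3 220HA site. These unmatched 187HA sites are described here. They were chosen by their presence in the filtered peak list of one isoform and their absence from that of the other, and the remaining 4367 filtered 187HA sites, each sharing at least 1 bp with a filtered 220HA site, are called common sites. Of the 536 sites, 356 lay on a 220HA peak of the unfiltered list that the filter had removed. The other 180 sites, 3.67% of the filtered 187HA list, met no peak of the unfiltered 220HA list.

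SIN3 is a scaffold protein without a known DNA-binding activity of its own. It holds the histone deacetylase RPD3 and other subunits in a complex that removes acetyl groups from histones, mostly near gene starts, and DNA-bound factors bring it to chromatin. In Drosophila, alternative splicing gives isoforms that share most of the protein and differ at the C-terminal end, of which SIN3 220 and SIN3 187 are the main forms. Which sites the isoforms share is a question for ChIP-seq, and the isoforms were mapped in separate cell lines through the same HA tag.

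Chromatin came from S2 cells, a line derived from Drosophila embryos, stably transfected with SIN3 187 or SIN3 220 that carried an HA tag and was driven by a metallothionein promoter. The 8 samples formed 4 groups of 2 replicates: HA immunoprecipitate and input DNA for the 187HA line, and the same for the 220HA line. Copper sulfate was given to induce SIN3 187HA, whereas SIN3 220HA was expressed through promoter leakage without copper, and overexpressed SIN3 187HA lowered endogenous SIN3 220 in its line. Isoform, cell line and copper treatment therefore cannot be told apart, and an untagged ChIP-seq library was not analysed here.

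The replicates had been joined before peaks were called, so each isoform had 1 set of values, without a spread between replicates and without a test between isoforms. All values below are descriptions, and shares carry 95% exact (Clopper-Pearson) binomial intervals that cover counting error only. Fold enrichment is the ratio of the ChIP signal to the background estimated from input at the summit, and the pileup is the number of overlapping fragments there. The lowest background, 12.1 fragments for 187HA and 15.2 for 220HA, was shared by 1015 of 9011 and 629 of 8862 unfiltered peaks. At those peaks it need not be the local input value. Filtered sites had a fold enrichment of at least 3.00 in both lists, and the lowest −log10 p among them was 21.6 for 187HA and 21.9 for 220HA. The filter itself used fold enrichment and the irreproducible discovery rate (IDR) between replicates, which the lists do not give for each peak, so the lowest −log10 p stands in for that limit. In the 220HA list the stand-in was exact, as all 5810 peaks past both values were listed and no others, and in the 187HA list 4905 peaks passed, of which 2 were not listed. Positions are in the dm3 build, counted from 1.

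The unmatched 187HA sites were weaker and narrower than the common sites. Fold enrichment at the unmatched sites was between 3.00 and 14.9, and its median of 4.58 compares with 6.28 at common sites. Their −log10 p had a median of 31.3, against 61.0. A fold enrichment below 5 was found at 354 of the unmatched sites (66.0%, 61.9 to 70.0) and at 1195 of the common sites (27.4%, 26.0 to 28.7). Common sites reached 43.5-fold, far above the highest unmatched site, and 15 unmatched sites exceeded 8-fold.

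Pileup and background at the summit were also compared. The median pileup was 92.0 fragments at unmatched sites and 131 at common sites, whereas the median background was 19.1 and 19.8. Many unmatched sites were close to the limit of their own list. A −log10 p under 25 was found at 117 of them (21.8%, 18.4 to 25.6) and at 278 common sites (6.37%, 5.66 to 7.13). The weakest by p-value was the site on 3R at 21071334 to 21071783, which was 3.46-fold enriched with a −log10 p of 21.6.

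Width was not itself a criterion, but a narrow peak meets the rule of no shared base more readily than a wide one. Unmatched sites were 178 to 2792 bp wide with a median of 579.5 bp and quartiles of 418 and 862 bp, whereas common sites had a median of 850 bp. Weak peaks are narrow, so widths were also compared at like fold enrichment. With common sites weighted to the fold enrichment deciles of the unmatched sites, the median width of the common sites averaged 697 bp, against the 579.5 bp of the unmatched sites. With unmatched sites defined instead by an overlap under 50% of the peak, their own median width was 690 bp, so the width of the class depended on the overlap rule. Together the unmatched sites covered 362 kb and the common sites 4542 kb.

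The 3 widest unmatched sites show what the upper end of this range held. The widest, on X at 1168743 to 1171534, was 9.57-fold enriched and spanned 2792 bp. The next, on X at 17636081 to 17638681, spanned 2601 bp at 4.31-fold over a raised background of 39.8, and the third, on 2R at 20193218 to 20195417, spanned 2200 bp at 3.85-fold. Each of the 3 met a weaker and much shorter 220HA peak, of 493, 559 and 503 bp.

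Most unmatched sites had a 220HA peak beneath them. Of the 536, 356 (66.4%) met at least 1 peak of the unfiltered 220HA list, of which 320 met 1, 34 met 2 and 2 met 3. The 220HA peak that shared most bases had a fold enrichment of 1.52 to 4.06 with a median of 2.76, a −log10 p with a median of 15.9 and a median width of 382 bp. Its summit lay a median of 41.5 bp from the 187HA summit, and 194 of the 356 (54.5%, 49.2 to 59.8) were within 50 bp. At common sites the summits were a median of 22 bp apart, and 2925 of 4367 (67.0%, 65.6 to 68.4) were within 50 bp.

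The removed 220HA peaks fell short of the lowest listed values in different ways. Both fold enrichment and p-value were below them at 213 of the 356 (59.8%, 54.5 to 65.0). At 89 (25%, 20.6 to 29.8) the 220HA peak was at least 3-fold enriched and only its −log10 p was below 21.9, and at 54 (15.2%, 11.6 to 19.3) its −log10 p was past 21.9 and only its fold enrichment was below 3. A 220HA peak within 0.5 of the fold threshold that also came within 5 of the lowest listed −log10 p was present at 139 sites (39.0%, 33.9 to 44.3). For these sites the 220HA peak was close to, or past, each of the values that listed peaks reached.

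**Figure D1:**
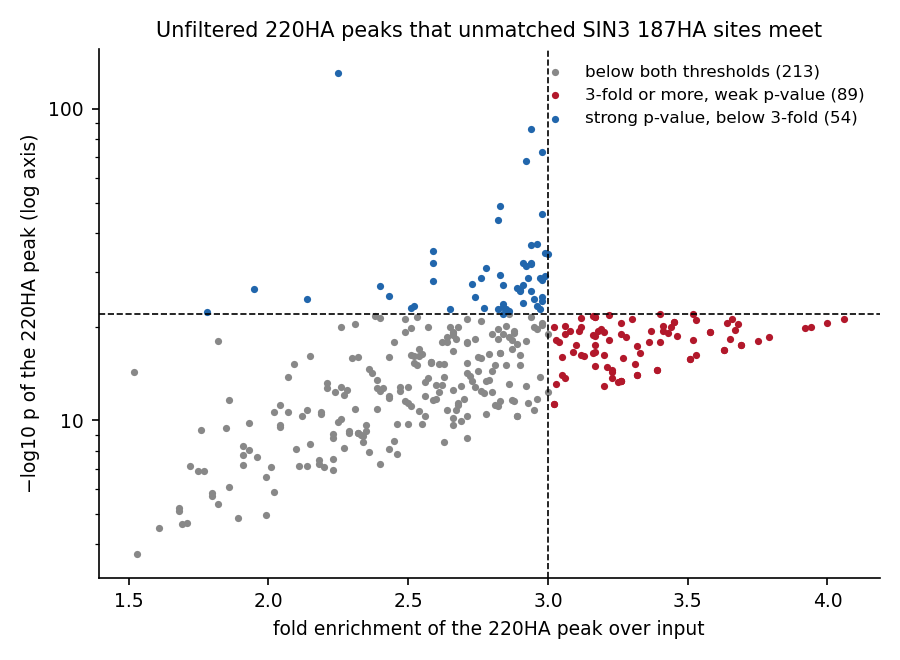
Fold enrichment (horizontal axis) and −log10 p (vertical log axis) of the unfiltered 220HA peak sharing most bases with each of 356 unmatched 187HA sites. Dashed lines mark 3-fold enrichment and the lowest −log10 p of the filtered 220HA list (21.9). Points are grey below both lines (213), red where −log10 p alone was below its line (89) and blue where fold enrichment alone was below its line (54), and none lies in the upper right.

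The values of both lists at peaks that met follow in part from the choice of sites and are given without a test. Each value was taken at the summit of its own peak. The summits were within 200 bp of each other at 290 of the 356 unmatched sites (81.5%), so the values are not always from one place. The 187HA fold enrichment was 1.03 to 3.72 times that of the 220HA peak beneath it, with a median of 1.72, and exceeded it at all 356 sites. At common sites the median ratio was 0.848, and 187HA was the higher at 1386 of 4367 (31.7%, 30.4 to 33.1). The median pileup ratio was also higher at unmatched sites, 1.16 against 0.566 at common sites. Its first quartile at unmatched sites was 0.913, so the 220HA pileup was the higher at part of them. Over all filtered sites the median pileup was 125 fragments in the 187HA list and 189 in the 220HA list. A pileup ratio of 1 therefore need not mean equal occupancy. The background ratio was nearly equal in both classes, with medians of 0.663 and 0.653, and background was the measure in which the classes were closest.

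Peak width shifted in the same direction. The 187HA peak was a median of 1.54 times as wide as the 220HA peak it met at unmatched sites, and 0.900 times as wide at common sites. The 220HA peak was the narrower at 293 of 356 unmatched sites (82.3%, 77.9 to 86.1) and lay wholly inside the 187HA peak at 231 (64.9%, 59.7 to 69.8). It covered a median of 61.0% of the 187HA site.

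**Figure D2:**
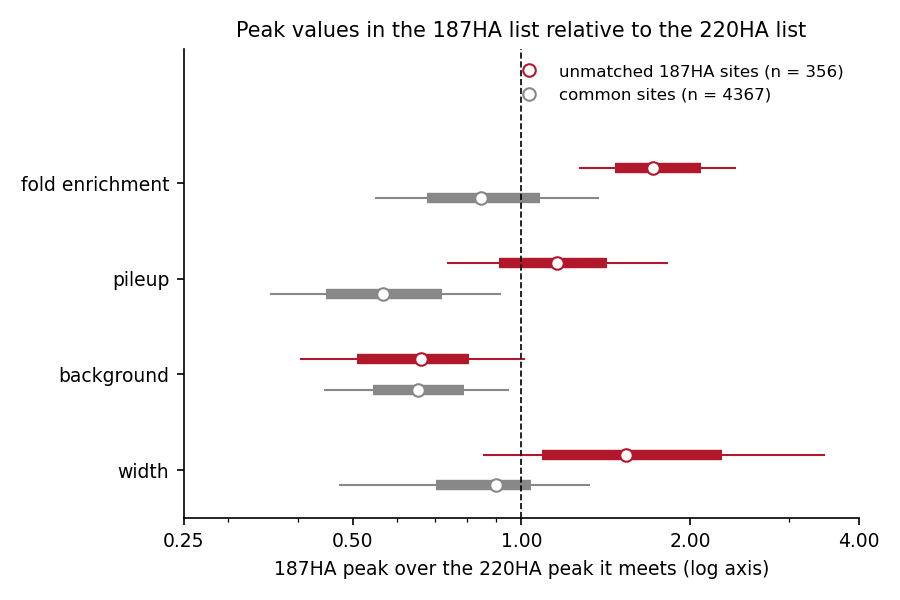
Fold enrichment, pileup, background and width of the 187HA peak divided by that of the 220HA peak it met (log axis), for 356 unmatched 187HA sites (red, unfiltered 220HA peak) and 4367 common sites (grey, filtered 220HA peak). Circles are medians, thick bars quartiles and thin lines the 10th to 90th percentiles; the background bars of both classes overlap almost fully (medians of 0.663 and 0.653), whereas those of fold enrichment are apart (1.72 and 0.848).

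Among the unmatched sites with a 220HA peak, the 5 of highest fold enrichment were far above the peak beneath them. The first, on X at 5629399 to 5630302, was 9.99-fold enriched from a pileup of 134 fragments, whereas the 220HA peak in it was 2.68-fold enriched from a pileup of 59. The widest site, on X at 1168743 to 1171534, reached 9.57. The 220HA peak sharing most of its bases, with a summit 1605 bp away, reached 3.02 and the other 220HA peak in it 2.83. These 2 sites had a 187HA background close to the lowest of the list, 12.5 and 12.1 fragments, and their 220HA backgrounds were 21.4 and 15.2.

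The third, on 3L at 8684504 to 8686435, differed from the rest in its depth. Its pileup was 1507 fragments over a background of 169, which gave a fold enrichment of 8.88 and, at 854, the highest −log10 p of all unmatched sites. The 220HA peak there had a pileup of 376 over a background of 125 and a fold enrichment of 2.98, so its −log10 p of 72.5 was well past the lowest listed and its fold enrichment just under 3. The last 2 were on X at 1179188 to 1179751 (8.86-fold against 3.20) and on 2R at 11562448 to 11563068 (8.53-fold against 2.93).

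The 180 sites that met no 220HA peak were not the strongest as a group. Their median fold enrichment was 4.48, against 4.62 at the 356 sites with a 220HA peak, and they were narrower, with medians of 478 and 652 bp. Their median pileup was 87.5 fragments, against 94.0. The nearest peak of the unfiltered 220HA list was 29 to 72720 bp away, with a median of 3464 bp, and 21 sites (11.7%, 7.37 to 17.3) had one within 500 bp. At its lowest background the unfiltered 220HA list began at a fold enrichment of 2.03 and a pileup of 32 fragments, and a 220HA signal too weak to be listed cannot be seen in these lists.

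Strong exceptions existed among these 180. The site of highest fold enrichment of all unmatched sites, on X at 1182911 to 1183683, was 14.9-fold enriched with a pileup of 256 fragments over a background of 16.2. The next was on X at 1176403 to 1176948, where a pileup of 170 over the lowest background of the list, 12.1, gave 13.1-fold enrichment. No 220HA peak was listed within 3279 bp of the first or within 2288 bp of the next.

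The other 3 lay apart from these. On 3R, the site at 19211856 to 19212336 was 11.7-fold enriched (pileup 219, background 17.8) with the nearest 220HA peak 10964 bp away, and the site at 26835625 to 26836257 was 10.2-fold enriched (pileup 210, background 19.7) with the nearest 42867 bp away. On X, the site at 15447437 to 15448757 was 9.53-fold enriched with the nearest 6510 bp away. All 5 were in the upper 2 deciles of the filtered 187HA list, where 1.43% and 0.611% of sites were unmatched.

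The values next to the boundary of the rule were ordinary ones. Just inside, the smallest gap to a filtered 220HA site was 39 bp, for the site on 2R at 13152695 to 13153454 (4.47-fold), followed by 83 bp on X at 14136941 to 14137141 (5.85-fold) and 126 bp on 3L at 21033435 to 21033883 (3.76-fold). Just outside, the common sites with the fewest shared bases shared 152 bp on 2R at 17990453 to 17990638 (3.70-fold), 159 bp on 3L at 3082906 to 3084144 (4.64-fold) and 177 bp on X at 3247302 to 3247616 (4.23-fold). No site shared fewer bases than 152 without sharing 0, so the number of sites did not turn on a minimum overlap of a few bases.

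Unmatched sites lay at all distances from the common sites, from next to them to isolated. The distance from edge to edge ranged from 113 to 158553 bp, with quartiles of 1774, 5194 and 17147 bp. Within 1 kb of a common site there were 79 (14.7%, 11.8 to 18.0), within 10 kb 348 (64.9%, 60.7 to 69.0) and within 50 kb 491 (91.6%, 88.9 to 93.8). Common sites were closer to each other, a median of 2923 bp from the next common site. Filtered 220HA sites absent from the filtered 187HA list numbered 1517. They were a median of 3934 bp from the nearest filtered 220HA site that met a filtered 187HA site. That reference set has 220HA peak edges and so differs from the common sites.

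The sites without any 220HA peak were farther out than those with a weak one, with medians of 8770.5 and 4233 bp. Close flanking on both sides was rare, as 11 unmatched sites had a common site within 2000 bp on either side and 134 within 10000 bp. The most isolated was on 3L at 13221468 to 13222194, 158553 bp from a common site. It was 6.50-fold enriched and lay on a 220HA peak of 2.64-fold. The next 2 were near each other on 2L, at 14515167 to 14515586 (152704 bp, 3.71-fold) and at 14560376 to 14560651 (128326 bp, 5.33-fold), and neither met a 220HA peak.

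**Figure D3:**
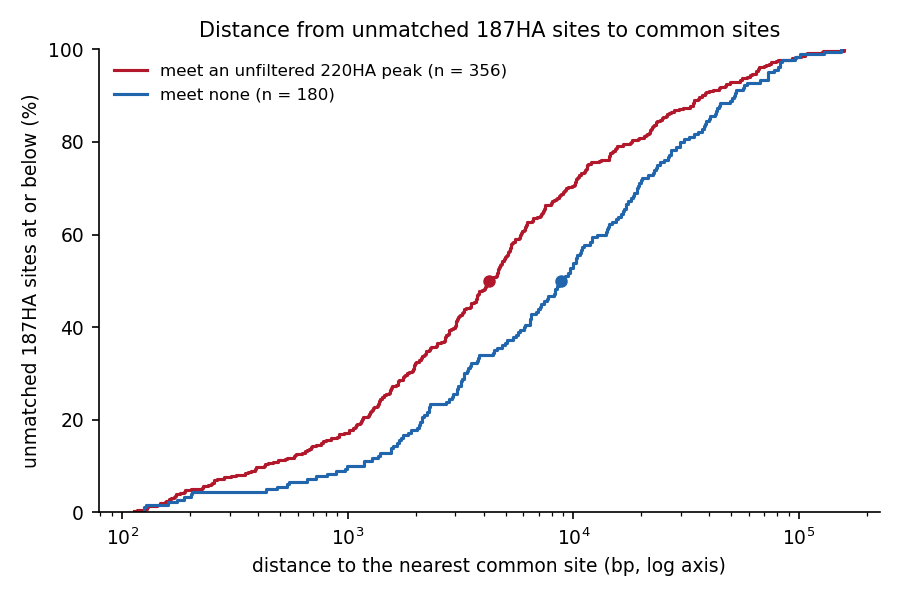
Cumulative percentage of unmatched 187HA sites (vertical axis) by distance from edge to edge to the nearest common site (horizontal log axis, bp), for the 356 sites that met an unfiltered 220HA peak (red) and the 180 that met none (blue). Dots mark medians of 4233 and 8770.5 bp; the blue curve is to the right of the red over most of its length.

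All 5 large chromosome arms carried unmatched sites, with 127 on 3L, 108 on 3R, 104 on 2L, 104 on X and 92 on 2R. Chromosome 4 carried 1, and none of the 9 filtered 187HA sites on heterochromatic sequence was unmatched. As a part of the filtered 187HA sites of each arm, they made up 14.3% on X (11.9 to 17.1), 11.8% on 3L (9.93 to 13.9), 11.7% on 2L (9.63 to 13.9), 9.18% on 3R (7.59 to 11.0) and 9.09% on 2R (7.39 to 11.0). The intervals of neighbouring arms in this order overlap. Taken as a whole, the unmatched sites had 19.4% of their number on X (16.1 to 23.0), and the common sites 14.2% (13.2 to 15.3).

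The part of sites that was unmatched varied with both fold enrichment and chromosome. Over the 10 deciles of fold enrichment of the filtered 187HA list, it was lower in each stronger decile, from 26.9% in the lowest (3.00 to 3.98-fold) to 0.611% in the highest (10.85-fold and above). It was higher on X than on the autosomal arms in 10 of 10 deciles, though the intervals were apart only in the fourth and the ninth. In the fourth decile it was 26.6% on X (17.3 to 37.7) and 10.7% on the autosomal arms (7.91 to 14.1), and in the ninth 5.68% (1.87 to 12.8) and 0.499% (0.0605 to 1.79). With the autosomal arms weighted to the deciles of the X sites, 8.09% of autosomal sites were unmatched, against 14.3% on X.

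**Figure D4:**
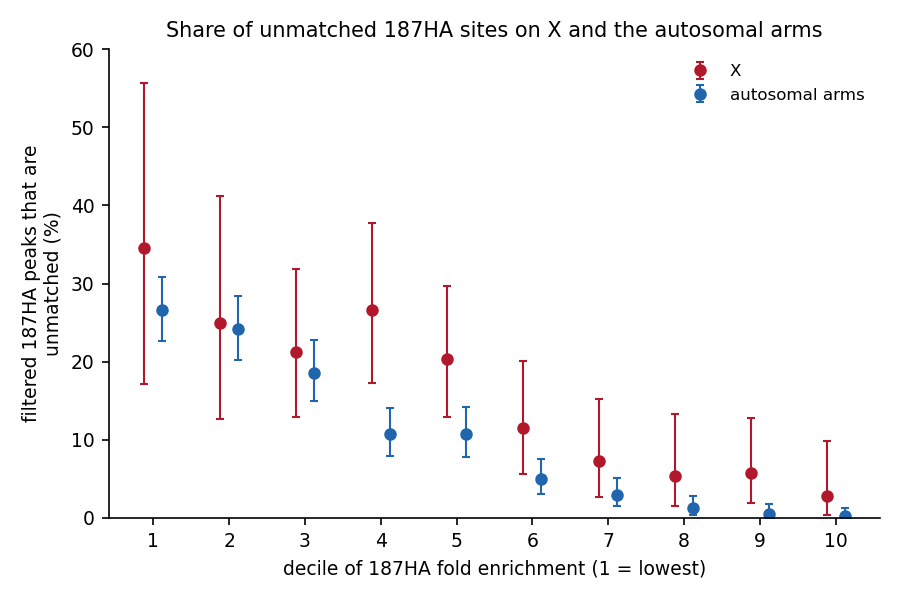
Percentage of filtered 187HA sites that were unmatched (vertical axis) in each decile of 187HA fold enrichment (horizontal axis), on X (red) and on the autosomal arms 2L, 2R, 3L and 3R (blue). Bars are 95% exact binomial intervals for counting error; the X point is the higher in all 10 deciles, and the intervals are apart in the fourth (26.6% and 10.7%) and in the ninth (5.68% and 0.499%).

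The difference was wider above a higher fold threshold, but it did not widen with each stronger decile. In percentage points it was widest in the fourth decile, and in the tenth the parts were 2.82% on X and 0.238% on the autosomal arms. At 3-fold enrichment or more, 14.3% of X sites and 10.4% of autosomal sites were unmatched. At 5-fold enrichment or more, 64 of 567 X sites (11.3%, 8.80 to 14.2) and 118 of 2783 autosomal sites (4.24%, 3.52 to 5.06) were unmatched. Of the 15 unmatched sites above 8-fold, 9 were on X. Of these 9, 4 lay within 14.9 kb of each other, from 1168743 to 1183683, so the count was in part local. Among all filtered sites, matched or not, X held 88 of 490 in decile 9 of fold enrichment and 71 of 491 in decile 10. Unmatched sites on X had a median fold enrichment of 5.22, a median pileup of 78.5 and a median background of 13.3, whereas those on the autosomal arms had medians of 4.32, 94.0 and 20.5. Background on X was as low at common sites, with a median of 13.1.

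Sites at low background began at a higher fold enrichment in both lists. The lowest background was 12.1 fragments in the 187HA list and 15.2 in the 220HA list, and 36 of the 104 X sites (34.6%, 25.6 to 44.6) lay at the lowest 187HA value, against 44 of all 536 (8.21%, 6.03 to 10.9). At these backgrounds the weakest filtered site had a fold enrichment of 4.59 for 187HA and of 4.19 for 220HA, above the 3.00 at which the lists begin. A 220HA peak lay beneath 73 of the 104 X sites (70.2%, 60.4 to 78.8) and 282 of the 431 autosomal ones (65.4%, 60.7 to 69.9), and these intervals overlap. The part that background took in the difference between X and the autosomal arms was not tested.

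Some unmatched sites stood next to each other. Neighbouring unmatched sites up to 10 kb apart, with no common site between them, formed 68 runs that held 154 of the 536 sites (28.7%). Of these, 55 runs had 2 sites, 8 had 3 and 5 had 4, which was the longest. Unmatched sites were 10.9% of the filtered 187HA list, and the share in runs under random placement was not computed. Clustering beyond the density of the list was therefore not tested.

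The run of 4 sites on X, from 1168743 to 1183683, held the 2 unmatched sites of highest fold enrichment. In order along the chromosome the fold enrichment was 9.57, 13.1, 8.86 and 14.9, with pileups of 124, 170, 159 and 256 fragments over backgrounds of 12.1, 12.1, 17.1 and 16.2. Within these 14.9 kb the unfiltered 220HA list had 3 peaks, with fold enrichments of 3.02, 2.83 and 3.20 and pileups of 48, 45 and 51 over its lowest background. All 4 sites thus passed 8-fold for 187HA, while none of the 220HA peaks there reached 4.

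The run and its surroundings held fewer filtered 220HA sites than filtered 187HA sites. Out to 60 kb on each side, the run included, 7 of 8 filtered 187HA sites were unmatched and the 220HA list had 2 filtered sites. The unmatched ones outside the run were at 1109111 to 1109327 (5.69-fold), 1129179 to 1129896 (7.31-fold) and 1133907 to 1134303 (4.75-fold). The single common site, at 1235715 to 1236407, was 6.66-fold enriched for 187HA and 5.48-fold for 220HA. Among 1 Mb windows with at least 15 filtered 187HA sites, the one from 1 to 2 Mb of X had the highest unmatched part, 14 of 36 (38.9%, 23.1 to 56.5). Without it, 13.1% of X sites (10.6 to 15.8) were unmatched.

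**Figure D5:**
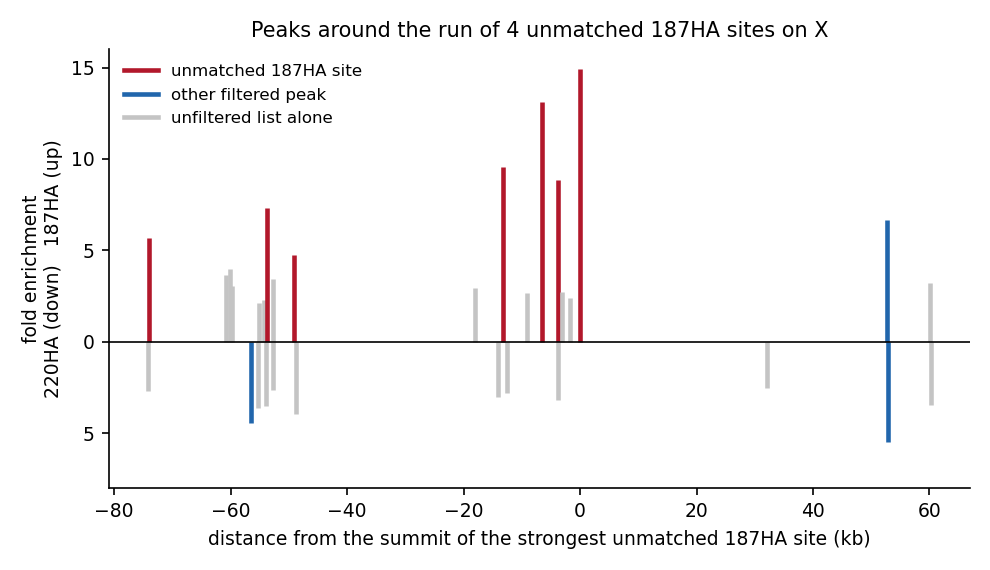
Fold enrichment of 187HA peaks (upward bars) and 220HA peaks (downward bars) by distance in kb from the summit of the strongest unmatched site. Red bars are unmatched 187HA sites, blue bars other filtered sites and grey bars peaks of the unfiltered lists alone; the 4 red bars of the run reach 8.86 to 14.9, and the 3 grey 220HA bars beside them 2.83 to 3.20.

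The other runs of 4 had mostly lower fold enrichment and differed in background. On 3L from 8684504 to 8698526, which begins with the site of highest pileup, the fold enrichment was 8.88, 3.69, 4.23 and 3.86 over 187HA backgrounds of 122 to 169. The pileups of this 3L run, 473 to 1507 fragments, were above the 124 to 256 of the X run. On 2L from 7084545 to 7091370 it was 3.00, 4.58, 6.26 and 3.79. The 187HA pileup in this 2L run was 113 to 208 fragments, below the 252 to 459 of the nearest 220HA peaks. There the 187HA background was 28.7 to 37.0 and that of the nearest 220HA peaks 138 to 160.0. The 220HA input was thus raised there far beyond the median ratio of 0.663. Whether this input difference had a part in the absence of filtered 220HA sites from that run was not tested.

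The 2 remaining runs were on 2L, from 8693625 to 8705394 and from 12530715 to 12540722, with fold enrichments of 4.08 to 4.70 and of 3.65 to 4.88. In the former, the 4 summits all lay within Hnf4, which encodes a nuclear receptor that acts in lipid and glucose metabolism. Each of its sites met a 220HA peak, of 2.07 to 2.51-fold. These 220HA peaks had pileups of 120 to 176 fragments over backgrounds of 48.4 to 71.8. The sites themselves had pileups of 94 to 124 over backgrounds of 20.0 to 25.6. At each site the 220HA pileup was the higher. At the sites from 8702117 and 8702710 the 220HA peak fell short in fold enrichment alone, and at the others also in p-value. Whether the higher 220HA background had a part in this was not tested. Hnf4 was singled out after the values had been seen.

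Gene names were looked up only for part of 2L, in transcript tables of the study that are held here in shortened form and in the dm3 build, so no part of sites at genes is given. Genes are named for those of the 10 unmatched sites of highest fold enrichment in that stretch that had the summit inside a gene or covered a start of one. The strongest, at 3655546 to 3656233, was 6.97-fold enriched within for, which encodes a cGMP-dependent protein kinase known for its part in foraging behaviour, and met a 220HA peak of 2.83-fold.

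A pair of these sites lay at vri, which encodes a transcriptional repressor of the circadian clock. The site at 5304985 to 5305586 was 6.81-fold enriched within the gene and met a 220HA peak of 3.26-fold, whereas the site at 5298914 to 5300013 covered a start of the gene, was 5.86-fold enriched and met none. They were 695 and 3412 bp from a common site.

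The other 3 named by this rule were a site of 6.36-fold at 865684 to 867575, over a start of aru, a site of 6.04-fold at 8103986 to 8104446 within Bsg, which encodes the membrane glycoprotein basigin, and a site of 5.85-fold at 3778532 to 3779011 over a start of bowl, which encodes a zinc finger transcription factor of the odd-skipped family. The aru site met a 220HA peak of 2.86-fold, while those at Bsg and bowl met none. Further sites were chosen after their values were seen. One lay within aop, an ETS-domain repressor of Ras signalling (2164058 to 2164916, 4.07-fold, with a 220HA peak of 3.69-fold). Another lay within spen (170454 to 170660, 3.42-fold, no 220HA peak). One more covered a start of Pvf2, a ligand of the PDGF and VEGF receptor family (7084545 to 7084762, 3.00-fold, 220HA peak of 1.95-fold). The Pvf2 site belonged to the 2L run with raised 220HA input. Its own pileup was 113 fragments over a background of 37.0, and the 220HA peak there had 313 over 160.0. That 220HA peak fell short of the lowest listed values in fold enrichment alone. At aop the 220HA pileup was the lower, 59 against 72 fragments.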

How the data were processed

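Reads were aligned by the authors to dm3 (Bowtie2, unique alignments only), and peaks were called against input by MACS2 2.1.0 with all duplicates retained; base calling used CASAVA 1.8.2, per the submitters' processing notes. Peak names show that the replicates were joined first. For each peak the deposited unfiltered lists give position, summit, a score, the ratio (fold enrichment over input) and the −log10 p and q, all computed by the authors. The deposited filtered lists hold only the positions of peaks with at least 3-fold enrichment that also met a limit on the irreproducible discovery rate between replicates, whose value the study states in different ways. Duplicates can raise pileups, and depth per sample is unknown.

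Filtered starts were reduced by 1 and matched to unfiltered peaks. Overlap required 1 bp. Pileup and background were solved from fold enrichment, taken as (pileup + 1) / (background + 1), and the Poisson p-value. The recovered pileup was within 0.05 of a whole number for 9008 of 9011 187HA and 8860 of 8862 220HA peaks. Where several 220HA peaks were met, the 1 sharing most bases was used. Deciles rank all filtered 187HA sites by fold enrichment. Python 3.11.15, numpy 2.4.6, pandas 2.3.3, scipy 1.17.1 and matplotlib 3.10.9 were used, and the code was tested on simulated data and checked with bedtools.

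The sites, lists and alternatives were chosen with earlier results of these data known. Regions named were the 5 of highest fold enrichment with and the 5 without a 220HA peak, the 3 widest, the 3 farthest from a common site, the 3 on each side of the rule and the longest runs; genes were named for the 10 sites of highest fold enrichment on the part of 2L covered by both transcript tables, with symbols from RefSeq through the accession. Alternatives were other overlap rules, 4-fold and 5-fold thresholds, other reference sites for the distance, and subsets of sites.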

Additional observations from a re-analysis of the deposited data

How the results depend on the processing

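No paired analysis was possible because reads of both replicates had been merged before peak calling, and for the same reason no replicate could be left out. The number of unmatched sites was 180 instead of 536 against the unfiltered 220HA list and 182 at 5-fold enrichment or more. It was 400 at 4-fold or more, 484 to 686 under the other overlap rules, and 536 with starts taken as given. The part that met an unfiltered 220HA peak was 43.1% instead of 66.4% when the overlap had to cover at least 50% of the site, 71.4% at 5-fold or more and 73.8% for sites by the 50% rule. The median width was 692 bp at 5-fold or more, 690 bp by the 50% rule and 478 bp for sites without any 220HA peak, instead of 579.5 bp. The median distance to a common site, 5194 bp, was 6167 bp between summits, 3766 bp to any filtered 220HA site and 0 bp to any unfiltered 220HA peak. The part on X rose from 19.4% to 23.5% at 4-fold and 35.2% at 5-fold or more, and was 17.2% without the window from 1 to 2 Mb, an alternative chosen after seeing the data. The median fold enrichment was 4.75 by the 50% rule, instead of 4.58. The cause of these shifts was not tested. Without values per replicate, none of the differences could be set against biological error, and 220HA signal below the unfiltered list cannot be seen.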
